A study of Mus musculus with 9 samples.

Results

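This account follows Trp53, the gene of the tumour suppressor p53, its inhibitors and its target genes in senescent mouse cells. The 35 genes were taken by name from the table of 24062 gene symbols, and all 35 passed the filter on low counts, which 15369 genes passed. Among them, Tigar stood in the table under an older symbol. The comparison takes 3 groups of 3 samples. The cells of all 3 groups were embryonic fibroblasts of C57BL/6 mice driven into senescence by gamma irradiation, and at day 10 after irradiation they received a lentivirus with a short hairpin RNA. The shScr group received a scrambled control hairpin, and the shRela-1 and shRela-2 groups each received a different hairpin against Rela, which encodes p65, a subunit of the transcription factor NF-kB. The sources used here do not give the age of the embryos, the sequences of the hairpins or the time from infection to harvest. No unirradiated sample is part of these groups, so the data say how the genes differ between hairpins and not how they answer irradiation.

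p53 is a transcription factor that DNA damage stabilises, largely by freeing the protein from Mdm2, the ligase that marks it for destruction, and from Mdm4, a relative that masks its activation domain. Stabilised p53 binds pairs of a short palindromic element near its targets and raises genes of cell cycle arrest, cell death, DNA repair and metabolism, among them Mdm2 itself, which closes a feedback loop. In irradiated fibroblasts this programme starts the arrest that becomes senescence. Because p53 is controlled mainly as a protein, the level of its mRNA is not a measure of its activity.

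Total counts ran from 49774667 to 67963506 per sample. Levels are given as CPM, counts relative to a common library size after TMM scaling, and changes as log2 fold changes ± the standard error of the edgeR fit to all 9 samples. A gene is said to have risen or fallen where the adjusted p of edgeR's quasi-likelihood test, corrected over all 15369 genes by Benjamini and Hochberg's method, was under 0.05. Rela, the target of both hairpins, stood at 15.5 to 16.6% of the shScr mean in the shRela-1 samples and at 15.7 to 17.3% in the shRela-2 samples, as the labels say. The 10 fibroblast markers summed to 53324 to 58901 CPM (shScr), 59973 to 63111 CPM (shRela-1) and 52313 to 55263 CPM (shRela-2). Markers of other cells had lower sums. Those of endothelium summed to 2.82 to 4.49 CPM over all 9 samples, and those of skeletal muscle to 190 to 368 CPM (shScr), 276 to 515 CPM (shRela-1) and 164 to 291 CPM (shRela-2). Nearly all of the skeletal muscle sum was Des, the only 1 of its 5 markers that passed the filter. The sums for epithelium were 7.52 to 11.1 CPM (shScr), 11.9 to 20.2 CPM (shRela-1) and 7.05 to 9.49 CPM (shRela-2). Those for neural and glial cells were 88.3 to 88.8 CPM (shScr), 57.8 to 62.9 CPM (shRela-1) and 123 to 134 CPM (shRela-2), nearly all of it Tubb3. The part of these sums in the results was not tested. The shScr titles hold a dataset tag that the other titles lack, and a library batch that went with it cannot be told apart from the control hairpin. Nothing in the labels says that replicates were separate cultures, so the p-values are about the spread of these 9 samples alone, and that spread may be technical. In bulk RNA, fewer cells of a type and less RNA per cell cannot be told apart.

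Changes of the p53 genes were small, in both directions, and often unlike under the 2 hairpins. Against shScr, 10 of the 35 genes rose and 7 fell with shRela-1, where 12.3% and 12.4% of all tested genes did. With shRela-2, 4 rose and 9 fell, against 15.4% and 15.4% of all genes. In either direction that is 48.6% of the members against a background of 24.7% with shRela-1, and 37.1% against 30.9% with shRela-2. The median change over the members was 0.04 for shRela-1, where that over all tested genes was 0.00256, and -0.02 for shRela-2, where it was -0.00202. No member changed by a log2 fold of 1, 6 changed by more than 0.5 with shRela-1 and 2 with shRela-2. Both comparisons use the same 3 shScr samples, so their values are set side by side below with no claim from their likeness. All 3 shRela-1 samples were above all controls in 11 members (20.1% of all genes) and below them in 8 (19.5%), and all 3 shRela-2 samples in 6 (22.5%) and 11 (21.6%). With the replicate number as a block, 13 rose and 8 fell with shRela-1, where 20.4% and 18.9% of all genes did, and 60% of the members changed in either direction against 39.3% of all genes. With the block and shRela-2, 7 rose and 12 fell, where 22.2% and 22.2% of all genes did, and 54.3% of the members changed in either direction against 44.4% of all genes. The 10 that rose with shRela-1 became 6 when shScr replicate 1, 2 or 3 or shRela-1 replicate 2 or 3 was left out.

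**Figure D1:**
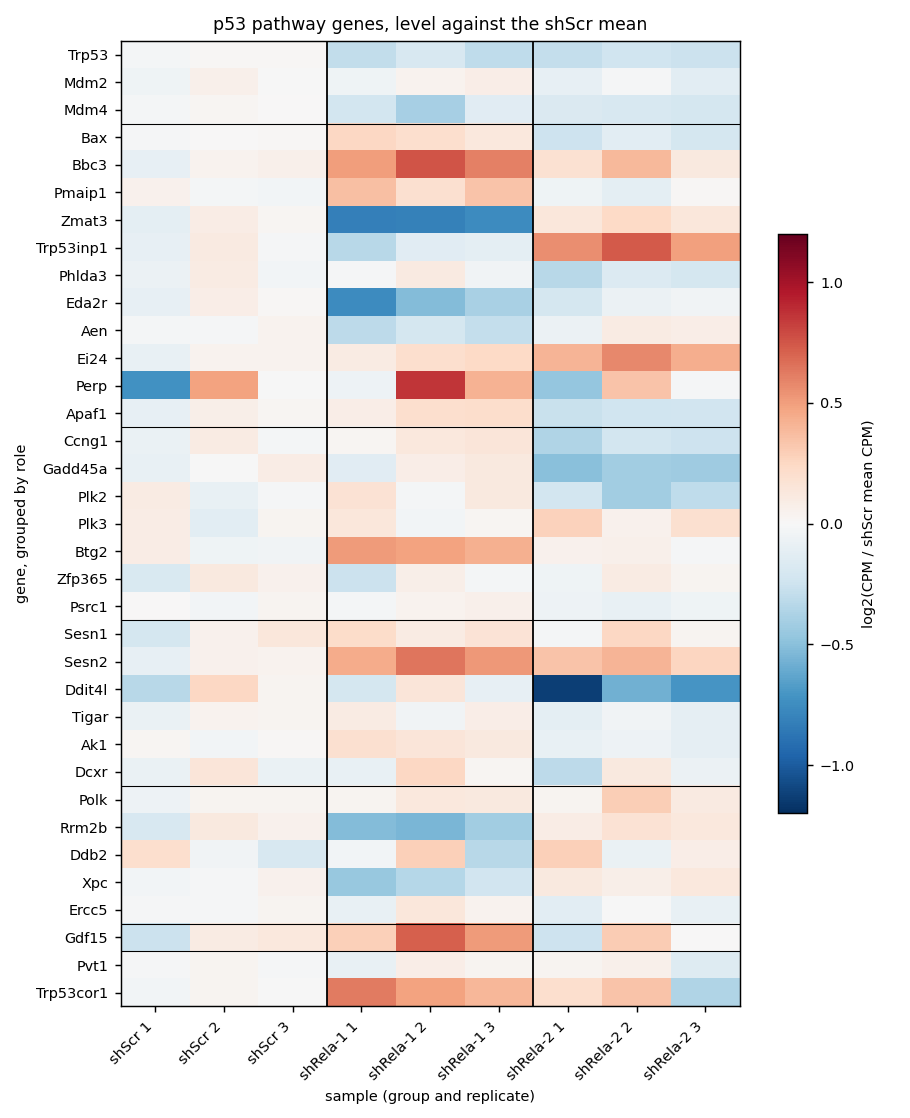
Level of each of the 35 genes in each of the 9 samples as log2 of its CPM over the shScr mean, with genes grouped by role (blue is lower, red is higher). Zmat3, Eda2r, Rrm2b and Xpc are blue in the shRela-1 columns, while Trp53inp1 is red and Ddit4l is blue in the shRela-2 columns.

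Trp53 itself fell with both hairpins. The gene (chr11:69580359-69591873, plus strand, build mm10 here and for all positions below) was measured at 112, 115 and 115 CPM (shScr), 93.1, 99.8 and 92.1 CPM (shRela-1) and 93.2, 96.7 and 95.5 CPM (shRela-2). All 6 knockdown samples lay below all 3 controls, and the knockdown groups overlapped. The change was -0.26 ± 0.039 (edgeR adjusted p = 0.000747) with shRela-1 and -0.26 ± 0.039 (edgeR adjusted p = 0.000644) with shRela-2, and the hairpins differed by 0.00 with a 95% interval from -0.08 to 0.09. Mdm4 (chr1:132959484-133030561, minus strand) also fell with both, from 33.5, 34.5 and 34.2 CPM (shScr) to 29.3, 25.7 and 30.9 CPM (shRela-1) and 30.1, 29.9 and 29.3 CPM (shRela-2). Again the knockdown samples all lay below the controls. Its changes were -0.25 ± 0.062 (edgeR adjusted p = 0.0145) and -0.19 ± 0.062 (edgeR adjusted p = 0.0369). The second of these calls was lost when any 1 of the 6 samples compared was left out, with edgeR adjusted p of 0.0577, 0.0886 and 0.0956 leaving out shScr replicate 1, 2 or 3, and 0.0653, 0.0867 and 0.0999 leaving out shRela-2 replicate 1, 2 or 3. These fits, like all others here that leave out a sample, had no replicate block. In all 9 samples with the block, the edgeR adjusted p of this second call was 0.00507.

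Mdm2 (chr10:117688875-117710758, minus strand), at once the inhibitor and a target of p53, differed less. It stood at 325, 352 and 336 CPM (shScr), 327, 349 and 358 CPM (shRela-1) and 316, 335 and 309.8 CPM (shRela-2), and all 3 groups overlapped. Its values were 0.03 ± 0.049 (edgeR adjusted p = 0.751) with shRela-1, with a 95% interval from -0.08 to 0.14, and -0.08 ± 0.049 (edgeR adjusted p = 0.277, or 0.0428 with the replicate block) with shRela-2. Between the hairpins it differed by -0.10 ± 0.049 (edgeR adjusted p = 0.121, or 0.00611 with the replicate block), and this p was 0.0462 leaving out shRela-1 replicate 1.

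Promoter sequences were taken from RefSeq (GRCm38.p6), from 250 bases before to 50 bases after each start site, and 26 of the 35 genes matched an entry. The other 9 were not searched, namely Pmaip1, Zmat3, Trp53inp1, Perp, Rrm2b, Ddb2, Xpc, Pvt1 and Trp53cor1. The consensus of the p53 half-site, the palindromic element named above, reads the same on both strands, and it was found in 11 of the 37 promoters of these genes (29.7%), those of 10 genes, against 8.36% of all 32851 promoters in the table. The consensus of the kB site, the element that NF-kB binds, was sought on both strands and was found in the promoters of 3 of the genes (8.11% of promoters, against 4.51% of all). Trp53 has both, the first 75 bases and the second 5 bases before its start site. A match is a description of the letters and does not show binding. The stretches below were chosen with the results known. The half-site matches of Polk and Sesn1, which passed the test in no comparison, are left out. That of Mdm2, which did not pass either, is shown. Each runs 5′ to 3′ on the gene's strand with the match to the p53 half-site in capitals.
Trp53, chr11:69580274-69580303, plus strand: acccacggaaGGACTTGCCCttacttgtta
Mdm2, chr10:117710925-117710954, minus strand: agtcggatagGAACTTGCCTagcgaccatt
Bax, chr7:45467080-45467109, minus strand: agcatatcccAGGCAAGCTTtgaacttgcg
Ei24, chr9:36797325-36797354, minus strand: cgtgcggcccGGGCATGCCCagtgtgggcg
Aen, chr7:78895927-78895956, plus strand: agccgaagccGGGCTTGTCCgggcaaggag
Ccng1, chr11:40755452-40755481, minus strand: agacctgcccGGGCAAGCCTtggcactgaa
Gadd45a, chr6:67037428-67037457, minus strand: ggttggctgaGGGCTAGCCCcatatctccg
Ddit4l, chr3:137623572-137623601, plus strand: caactcccagGGGCTTGCCTgggcccctgc
In the next 3 the capitals mark the match to the kB site.
Trp53, chr11:69580344-69580373, plus strand: tgctgggattGGGACTTTCCcctcccacgt
Bbc3, chr7:16309436-16309465, plus strand: tctggctgccGGGAAACCCCccgcgccgag
Ak1, chr2:32628403-32628432, plus strand: cagggtgggaGGAGAACCCCtcaaccctgc

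Bbc3 and Pmaip1, members of the pathway that starts cell death at mitochondria, rose with shRela-1. Bbc3, which encodes Puma (chr7:16308393-16318205, plus strand), was at 10.8, 11.9 and 12.1 CPM (shScr), 16.4, 19.6 and 17.7 CPM (shRela-1) and 13.2, 15.2 and 12.6 CPM (shRela-2). The shRela-1 samples were the highest and the shScr samples the lowest, with no overlap. The change was 0.62 ± 0.092 (edgeR adjusted p = 0.000756) with shRela-1, 0.23 ± 0.093 (edgeR adjusted p = 0.0836, or 0.00811 with the replicate block) with shRela-2 and -0.39 ± 0.092 (edgeR adjusted p = 0.00652) for shRela-2 against shRela-1. Pmaip1, which encodes the related protein Noxa, was at 118, 112 and 112 CPM (shScr), 146, 129.6 and 145 CPM (shRela-1) and 109.9, 105 and 115 CPM (shRela-2). Here the shRela-1 samples stood alone above the other groups, which overlapped. Pmaip1 rose by 0.30 ± 0.053 (edgeR adjusted p = 0.00229) with shRela-1, was at -0.05 ± 0.053 (edgeR adjusted p = 0.545) with shRela-2 and differed between the hairpins by -0.35 ± 0.053 (edgeR adjusted p = 0.000417).

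Bax and Apaf1 moved in opposite directions with the hairpins. Bax, the pore-forming protein of the outer mitochondrial membrane (chr7:45461697-45466898, minus strand), was at 171, 173 and 174 CPM (shScr), 205, 198 and 188 CPM (shRela-1) and 145, 158 and 149 CPM (shRela-2). The 3 groups did not overlap, with the controls between the knockdowns. It rose with shRela-1 by 0.19 ± 0.044 (edgeR adjusted p = 0.00948), changed by -0.20 ± 0.044 (edgeR adjusted p = 0.00692) with shRela-2 and differed between the hairpins by -0.39 ± 0.044 (edgeR adjusted p = 5.38e-05). Its exons share bases with Gm45808 on the same strand, and the sources used here do not say how reads were split between them. Apaf1, the scaffold of the apoptosome (chr10:90989311-91082770, minus strand), was at 58.0, 65.0 and 62.8 CPM (shScr), 65.3, 71.3 and 71.8 CPM (shRela-1) and 51.6, 52.6 and 52.8 CPM (shRela-2), again with no overlap. It changed by 0.17 ± 0.049 (edgeR adjusted p = 0.0332) with shRela-1, by -0.24 ± 0.050 (edgeR adjusted p = 0.00391) with shRela-2 and by -0.41 ± 0.050 (edgeR adjusted p = 8.51e-05) between them. The rise with shRela-1 was lost in a fit of those 2 groups alone (adjusted p = 0.0637) and without single libraries, with edgeR adjusted p of 0.107 and 0.0714 leaving out shScr replicate 1 or 3, and 0.0992 and 0.104 leaving out shRela-1 replicate 2 or 3. Its edgeR adjusted p was 0.00101 with the replicate block.

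Zmat3 showed the widest gap between the hairpins of all 35 genes. It encodes a zinc finger protein that binds RNA (chr3:32334792-32366014, minus strand), and it was measured at 184, 213 and 204 CPM (shScr), 114, 114 and 118 CPM (shRela-1) and 219.6, 236 and 221 CPM (shRela-2). The shRela-1 samples were far below the others, and the shRela-2 samples lay above all controls. It changed by -0.80 ± 0.055 (edgeR adjusted p = 3.89e-06) with shRela-1 and by 0.17 ± 0.054 (edgeR adjusted p = 0.0374) with shRela-2, and the hairpins differed by 0.97 ± 0.055 (edgeR adjusted p = 4.21e-07), a fold of 1.95. The rise with shRela-2 was lost in a fit of those 2 groups alone (adjusted p = 0.0635) and without single libraries, with edgeR adjusted p of 0.113 and 0.0711 leaving out shScr replicate 1 or 3, and 0.0507 leaving out shRela-1 replicate 2, and 0.0514, 0.135 and 0.0582 leaving out shRela-2 replicate 1, 2 or 3. Without shScr replicate 1 the value was 0.11 in place of 0.17. The edgeR adjusted p of this rise was 0.000368 with the replicate block.

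Trp53inp1, which encodes a stress protein that acts with p53 in cell death (chr4:11156431-11174379, plus strand), had its highest level with shRela-2. It was at 107, 123 and 113 CPM (shScr), 90.6, 104 and 105 CPM (shRela-1) and 168, 190.2 and 160.2 CPM (shRela-2), with no overlap between any 2 groups. It rose with shRela-2 by 0.60 ± 0.080 (edgeR adjusted p = 0.000306), was at -0.19 ± 0.080 (edgeR adjusted p = 0.11, or 0.000811 with the replicate block) with shRela-1 and differed between the hairpins by 0.79 ± 0.080 (edgeR adjusted p = 2.31e-05). Ei24, a protein of the endoplasmic reticulum (chr9:36779159-36797393, minus strand), was at 127, 139 and 139 CPM (shScr), 144, 155 and 159 CPM (shRela-1) and 179, 201 and 182 CPM (shRela-2). Every knockdown sample was above every control, and shRela-2 was above shRela-1. The changes were 0.18 ± 0.059 (edgeR adjusted p = 0.0487) and 0.47 ± 0.059 (edgeR adjusted p = 0.000198), and the hairpins differed by 0.29 ± 0.059 (edgeR adjusted p = 0.00239). The first of these calls was lost without single libraries, with edgeR adjusted p of 0.149, 0.0672 and 0.0747 leaving out shScr replicate 1, 2 or 3, and 0.119 and 0.145 leaving out shRela-1 replicate 2 or 3, and 0.0637 leaving out shRela-2 replicate 3. That call had an edgeR adjusted p of 0.000165 with the replicate block. Gm26787 on the opposite strand shares 324 exon bases with Ei24, and the library kit does not mark strand.

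Eda2r and Aen fell with shRela-1. Eda2r, a receptor of the TNF receptor family (chrX:97333840-97377216, minus strand), was at 68.5, 77.7 and 74.4 CPM (shScr), 43.7, 51.1 and 56.0 CPM (shRela-1) and 63.7, 70.1 and 71.2 CPM (shRela-2). The shRela-1 samples were below all others, and the other groups overlapped. It changed by -0.55 ± 0.084 (edgeR adjusted p = 0.000913) with shRela-1, was at -0.11 ± 0.083 (edgeR adjusted p = 0.387, or 0.0446 with the replicate block) with shRela-2 and was higher with shRela-2 than with shRela-1 by 0.44 ± 0.084 (edgeR adjusted p = 0.00172). Aen, an exonuclease of apoptotic cells (chr7:78895854-78911209, plus strand), was at 149, 150.0 and 156 CPM (shScr), 122, 131 and 125 CPM (shRela-1) and 144, 162 and 160.4 CPM (shRela-2), with the shRela-1 samples again below all others. Its change was -0.27 ± 0.051 (edgeR adjusted p = 0.00349) with shRela-1 and 0.04 ± 0.051 (edgeR adjusted p = 0.643) with shRela-2, and the hairpins differed by 0.30 ± 0.051 (edgeR adjusted p = 0.000793). Phlda3, which binds membrane lipids in competition with the kinase Akt (chr1:135766119-135769136, plus strand), fell with shRela-2 (-0.24 ± 0.062, edgeR adjusted p = 0.0149) and was at 0.02 ± 0.062 (edgeR adjusted p = 0.885) with shRela-1, and the hairpins differed by -0.25 ± 0.062 (edgeR adjusted p = 0.00792). The fall with shRela-2 was lost without single libraries, with edgeR adjusted p of 0.0554 leaving out shScr replicate 2, and 0.0563 leaving out shRela-2 replicate 1. This fall had an edgeR adjusted p of 1.27e-06 with the replicate block. In all, 5 of the 11 cell death genes rose and 3 fell with shRela-1, where 12.3% and 12.4% of all genes did. With shRela-2, 3 rose and 3 fell, against 15.4% and 15.4% of all genes. Between the hairpins 10 of the 11 differed, 5 in each direction, where 39.9% of all genes differed. The remaining one, Perp, is described with the replicates.

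**Figure D2:**
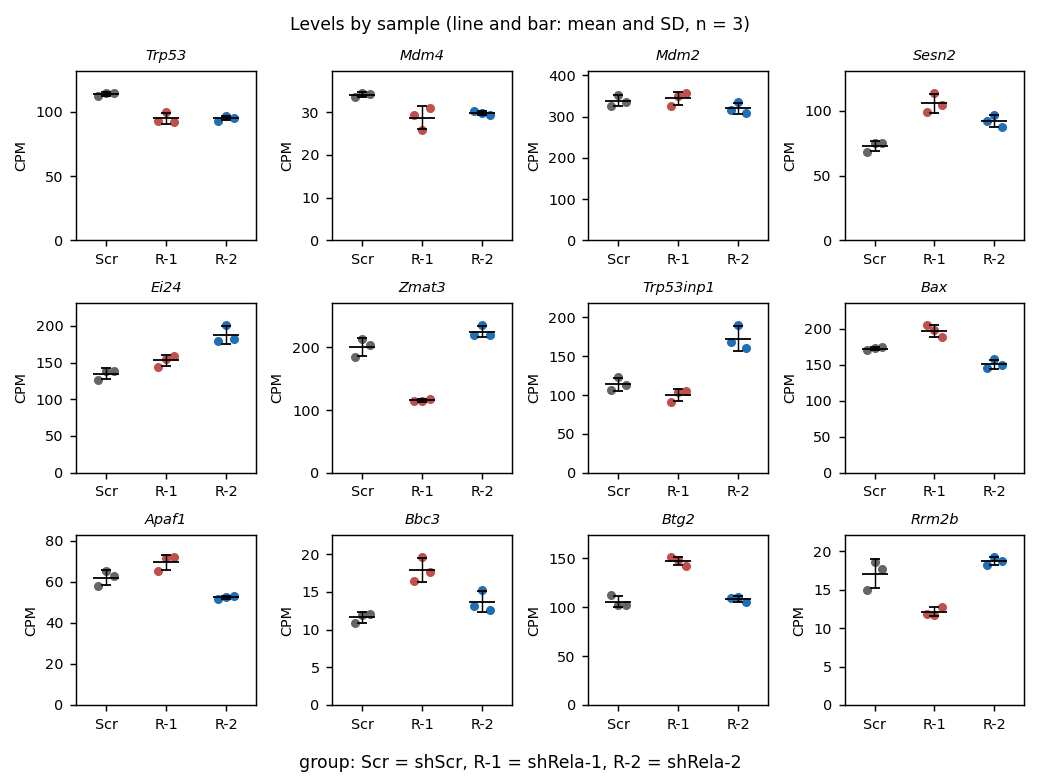
CPM in each sample (points) with mean and SD (line and bar, n = 3) for 12 of the genes in shScr, shRela-1 and shRela-2, on axes that start at 0. Trp53 and Mdm4 are below the controls in all 6 knockdown samples. The 3 groups of Bax, Apaf1, Zmat3, Trp53inp1, Bbc3, Sesn2 and Ei24 are apart.

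Among the genes of feedback and growth arrest, Ccng1, Gadd45a and Plk2 fell with shRela-2. Ccng1, which encodes cyclin G1, a protein that brings a phosphatase to Mdm2 (chr11:40748552-40755311, minus strand), was at 876, 989 and 911 CPM (shScr), 941, 1012 and 1026 CPM (shRela-1) and 719.7, 794 and 781 CPM (shRela-2). The shRela-2 samples were below all others, while the other groups overlapped. It changed by -0.27 ± 0.058 (edgeR adjusted p = 0.00444) with shRela-2, was at 0.10 ± 0.057 (edgeR adjusted p = 0.24, or 0.0104 with the replicate block) with shRela-1 and differed between the hairpins by -0.38 ± 0.058 (edgeR adjusted p = 0.000422). Gadd45a, a small stress protein of growth arrest (chr6:67035096-67037457, minus strand), was at 10.2, 10.9 and 11.6 CPM (shScr), 9.92, 11.6 and 11.8 CPM (shRela-1) and 7.70, 8.17 and 8.10 CPM (shRela-2), with the shRela-2 samples alone below. It fell with shRela-2 by -0.45 ± 0.087 (edgeR adjusted p = 0.00284), was at 0.02 ± 0.086 (edgeR adjusted p = 0.878) with shRela-1 and differed by -0.47 ± 0.087 (edgeR adjusted p = 0.00137). E230016M11Rik on the opposite strand shares 337 of its 1764 exon bases.

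Plk2, a polo-like kinase (chr13:110395046-110400844, plus strand), was at 369.7, 326 and 342 CPM (shScr), 390.3, 341 and 375 CPM (shRela-1) and 297, 259 and 279 CPM (shRela-2). It followed the same order, with shRela-2 below all others. Its change was -0.31 ± 0.067 (edgeR adjusted p = 0.00513) with shRela-2 and 0.09 ± 0.067 (edgeR adjusted p = 0.373, or 0.00758 with the replicate block) with shRela-1, and the hairpins differed by -0.41 ± 0.067 (edgeR adjusted p = 0.000743). Btg2, an antiproliferative protein that recruits mRNA deadenylases (chr1:134075170-134079120, minus strand), was at 112, 102 and 102 CPM (shScr), 151, 148 and 142 CPM (shRela-1) and 109.7, 109.9 and 105 CPM (shRela-2). Here the shRela-1 samples alone were high. Btg2 rose by 0.48 ± 0.046 (edgeR adjusted p = 4.44e-05) with shRela-1, was at 0.03 ± 0.046 (edgeR adjusted p = 0.645) with shRela-2 and differed by -0.44 ± 0.046 (edgeR adjusted p = 2.85e-05). So 1 of these 7 genes rose with shRela-1, against 12.3% of all genes, and with the replicate block 3 did (Btg2, Ccng1 and Plk2), against 20.4%. With shRela-2, 3 fell, against 15.4% of all genes, and 4 were lower with shRela-2 than with shRela-1, where 19.9% of all genes were. The other members are the kinase Plk3, the spindle protein Psrc1 and the zinc finger protein Zfp365.

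Markers of dividing cells moved with the hairpins beside these genes. The 12 markers summed to 176 to 185 CPM (shScr), 222 to 271 CPM (shRela-1) and 135 to 155 CPM (shRela-2), and none was at 0. Of the 12, 7 rose with shRela-1, where 12.3% of all genes did, and 6 fell with shRela-2, where 15.4% did. With shRela-2, 11 were lower than with shRela-1, against 19.9% of all genes. Their part in the results for the p53 genes was not tested.

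Among the genes of metabolism, Sesn2 rose with both hairpins. It encodes sestrin 2, an inhibitor of the growth kinase complex mTORC1 (chr4:132492032-132510501, minus strand), and was at 68.2, 75.5 and 75.4 CPM (shScr), 99.5, 114 and 104 CPM (shRela-1) and 92.3, 96.6 and 87.4 CPM (shRela-2). Every knockdown sample was above every control, and shRela-1 was above shRela-2. The changes were 0.54 ± 0.061 (edgeR adjusted p = 0.000122) and 0.33 ± 0.061 (edgeR adjusted p = 0.00198), and the hairpins differed by -0.20 ± 0.060 (edgeR adjusted p = 0.021). That difference was lost without single libraries, with edgeR adjusted p of 0.0759 leaving out shRela-1 replicate 2, and 0.0829 leaving out shRela-2 replicate 3. For Sesn2 the difference had an edgeR adjusted p of 0.000143 with the replicate block. Its relative Sesn1 was at 0.16 ± 0.10 (edgeR adjusted p = 0.3) with shRela-1 and 0.09 ± 0.10 (edgeR adjusted p = 0.57) with shRela-2.

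Ddit4l, another inhibitor of mTORC1 (chr3:137621612-137628333, plus strand), was the member with the largest fall under shRela-2. It was at 15.5, 23.1 and 19.9 CPM (shScr), 16.9, 21.5 and 18.2 CPM (shRela-1) and 8.92, 13.1 and 11.9 CPM (shRela-2). The shRela-2 samples were below all others, and shScr and shRela-1 overlapped. It changed by -0.78 ± 0.17 (edgeR adjusted p = 0.00484) with shRela-2, was at -0.05 ± 0.16 (edgeR adjusted p = 0.869) with shRela-1 and differed by -0.73 ± 0.17 (edgeR adjusted p = 0.00503). Ak1, an adenylate kinase (chr2:32621758-32635058, plus strand), was at 279, 268 and 277 CPM (shScr), 313, 305 and 297 CPM (shRela-1) and 259, 264 and 254 CPM (shRela-2), with no overlap between groups. Its change was 0.15 ± 0.037 (edgeR adjusted p = 0.0129, or 0.000177 with the replicate block) with shRela-1. Leaving out shScr replicate 2, without the block, gave an edgeR adjusted p of 0.0552. Ak1 was at -0.08 ± 0.037 (edgeR adjusted p = 0.112, or 0.0189 with the replicate block) with shRela-2 and differed between the hairpins by -0.23 ± 0.037 (edgeR adjusted p = 0.000486). Tigar, which lowers the glycolytic activator fructose-2,6-bisphosphate, was at 0.05 ± 0.060 (edgeR adjusted p = 0.628) and -0.09 ± 0.060 (edgeR adjusted p = 0.315), and Dcxr, a sugar and carbonyl reductase, at 0.07 ± 0.11 (edgeR adjusted p = 0.733) and -0.07 ± 0.11 (edgeR adjusted p = 0.677).

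Among the genes of nucleotide supply and DNA repair, Rrm2b and Xpc fell with shRela-1. Rrm2b, the ribonucleotide reductase subunit that p53 induces (chr15:37923952-37961318, minus strand), was at 15.0, 18.6 and 17.7 CPM (shScr), 11.9, 11.7 and 12.8 CPM (shRela-1) and 18.2, 19.2 and 18.7 CPM (shRela-2). The shRela-1 samples were below all others. It changed by -0.50 ± 0.082 (edgeR adjusted p = 0.00151) with shRela-1, was at 0.13 ± 0.081 (edgeR adjusted p = 0.27) with shRela-2 and differed by 0.63 ± 0.082 (edgeR adjusted p = 0.000146). Gm49085 on the opposite strand shares 734 of its 9134 exon bases. Xpc, which recognises damage for nucleotide excision repair (chr6:91489305-91515888, minus strand), was at 13.4, 13.5 and 14.1 CPM (shScr), 9.94, 10.7 and 11.7 CPM (shRela-1) and 14.8, 14.3 and 14.9 CPM (shRela-2). It changed by -0.34 ± 0.071 (edgeR adjusted p = 0.00549) with shRela-1, was at 0.10 ± 0.070 (edgeR adjusted p = 0.312) with shRela-2 although all 3 samples lay above the controls, and differed by 0.45 ± 0.071 (edgeR adjusted p = 0.000544). The other repair genes did not pass the test against shScr. The bypass polymerase gene Polk was at 0.09 ± 0.062 (edgeR adjusted p = 0.323) and 0.15 ± 0.063 (edgeR adjusted p = 0.0997, or 0.00556 with the replicate block), and the latter p was 0.0315 leaving out shRela-2 replicate 1. The damage sensor gene Ddb2 was at 0.00 ± 0.19 (edgeR adjusted p = 0.993) and 0.10 ± 0.19 (edgeR adjusted p = 0.731), and the endonuclease gene Ercc5 at 0.04 ± 0.055 (edgeR adjusted p = 0.692) and -0.07 ± 0.055 (edgeR adjusted p = 0.365).

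Gdf15, a secreted stress cytokine of the TGF-beta family (chr8:70629393-70632456, minus strand), was at 8.42, 10.7 and 11.0 CPM (shScr), 12.3, 16.5 and 14.3 CPM (shRela-1) and 8.47, 12.4 and 10.1 CPM (shRela-2). The shRela-1 samples were above the controls, and shRela-2 overlapped with both. It rose by 0.51 ± 0.16 (edgeR adjusted p = 0.0362) with shRela-1 and was at 0.04 ± 0.16 (edgeR adjusted p = 0.888) with shRela-2, and the hairpins differed by -0.47 ± 0.16 (edgeR adjusted p = 0.0339). In all 3 pairs of same-numbered samples shRela-1 was above shScr and above shRela-2, and with the replicate block the edgeR adjusted p was 6.43e-06 for the rise and 8.79e-06 for the difference. Without the block both calls were lost when single libraries were left out. The rise had edgeR adjusted p of 0.109, 0.059 and 0.058 leaving out shScr replicate 1, 2 or 3, and 0.125 and 0.0859 leaving out shRela-1 replicate 2 or 3, and 0.053 leaving out shRela-2 replicate 3. The difference had 0.122 and 0.0738 leaving out shRela-1 replicate 2 or 3, and 0.112 and 0.0903 leaving out shRela-2 replicate 1 or 3.

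Of the long noncoding RNAs, Trp53cor1, known as lincRNA-p21 (chr17:29057430-29079179, minus strand), was at 3.55, 3.72 and 3.62 CPM (shScr), 5.59, 5.07 and 4.78 CPM (shRela-1) and 4.19, 4.62 and 2.83 CPM (shRela-2). The shRela-1 samples were above all others, and shRela-2 spread around the controls. It changed by 0.50 ± 0.16 (edgeR adjusted p = 0.0432) with shRela-1 and was at 0.10 ± 0.16 (edgeR adjusted p = 0.71) with shRela-2. The rise was lost without single libraries, with edgeR adjusted p of 0.0986, 0.0898 and 0.11 leaving out shScr replicate 1, 2 or 3, and 0.12, 0.0864 and 0.0677 leaving out shRela-1 replicate 1, 2 or 3, and 0.0503 leaving out shRela-2 replicate 1. This rise had an edgeR adjusted p of 0.00251 with the replicate block. Between the hairpins the value was -0.41 ± 0.16 (edgeR adjusted p = 0.0667, or 0.00686 with the replicate block), and by edgeR it was 0.0267 leaving out shRela-2 replicate 2. DESeq2 gave it an adjusted p of 0.0423. Genes on the opposite strand share 1819 of its 3732 exon bases, so its reads cannot be told apart from theirs there. Pvt1, a host of several small RNAs next to Myc, was at 0.01 ± 0.072 (edgeR adjusted p = 0.942) and -0.02 ± 0.072 (edgeR adjusted p = 0.897).

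Set directly against each other, the hairpins differed in more of these genes than either did from the control, as they did over all genes. With shRela-2, 7 of the 35 were higher and 13 lower than with shRela-1, where 20% and 19.9% of all genes were, or 57.1% of members in either direction against 39.9%. With the replicate block the counts were 8 and 19, against 25.8% and 26.1% of all genes, and in either direction 77.1% of members against 51.9%. The higher ones were Zmat3, Trp53inp1, Rrm2b, Xpc, Eda2r, Aen and Ei24. The lower ones ran from Ddit4l (-0.73 ± 0.17) to Sesn2 (-0.20 ± 0.060). The median over the members was -0.11, and over all genes 0.0045. In 7 genes all 3 shRela-2 samples were above all 3 shRela-1 samples (25.1% of all genes), and in 15 all were below (25% of all genes).

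**Figure D3:**
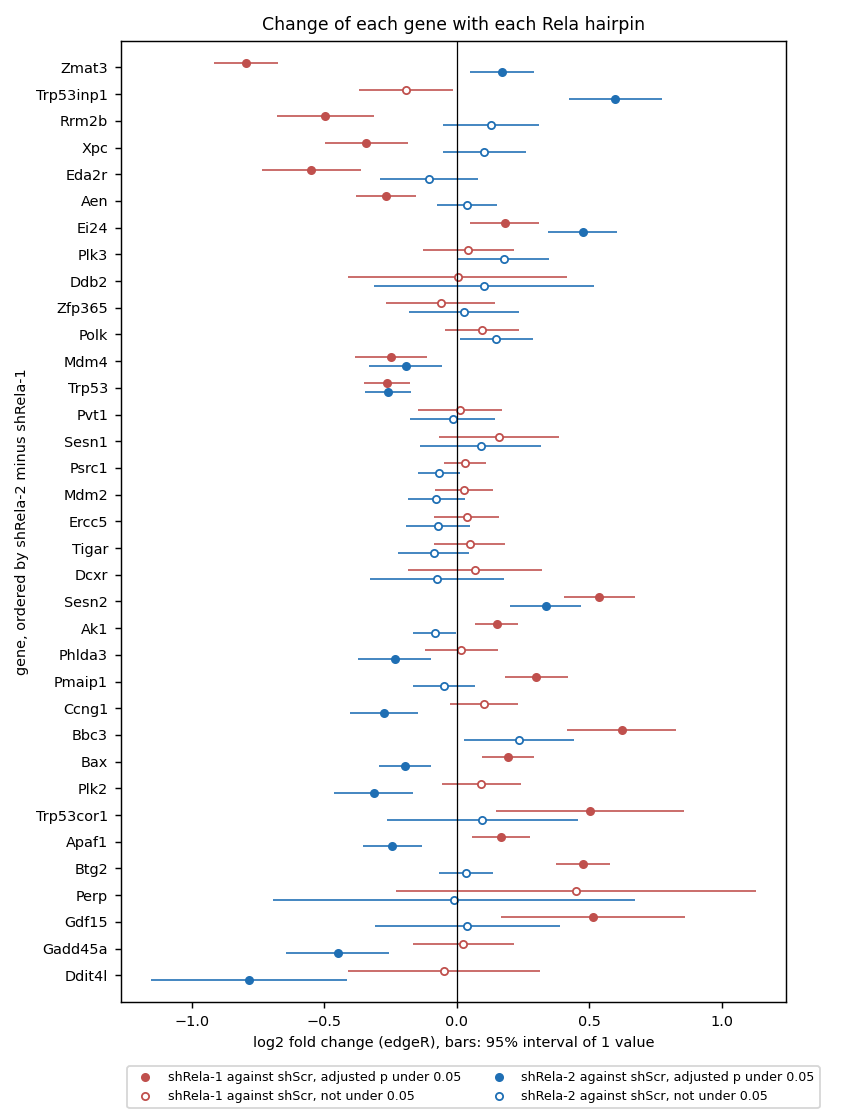
Log2 fold change of each gene under either hairpin against shScr (points, filled where the edgeR adjusted p is under 0.05) with the 95% interval of the single value (bars), ordered by the difference between the hairpins. Zmat3 and Trp53inp1 are at one end and Ddit4l at the other.

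In none of the 3 comparisons did 12 members pass the test by edgeR, namely Mdm2, Sesn1, Plk3, Perp, Polk, Tigar, Ddb2, Ercc5, Pvt1, Dcxr, Zfp365 and Psrc1. Their changes ran from -0.06 to 0.45 with shRela-1 and from -0.09 to 0.18 with shRela-2, and the lowest adjusted p was 0.0557, for Psrc1 between the hairpins. With the replicate block 7 of the 12 passed in at least 1 comparison. Beside Mdm2 and Polk above, these were Plk3 with shRela-2 (0.18 ± 0.077, edgeR adjusted p = 0.115, or 0.00645 with the replicate block) and between the hairpins (0.13 ± 0.077, edgeR adjusted p = 0.204, or 0.0305 with the replicate block), and, between the hairpins, Psrc1 (-0.10 ± 0.036, edgeR adjusted p = 0.0557, or 0.0216 with the replicate block), Ercc5 (-0.11 ± 0.055, edgeR adjusted p = 0.144, or 0.0347 with the replicate block) and Dcxr (-0.14 ± 0.11, edgeR adjusted p = 0.366, or 0.00984 with the replicate block). Without a block, the edgeR adjusted p between the hairpins was 0.0269 leaving out shRela-1 replicate 1 for Psrc1 and 0.0207 leaving out shRela-1 replicate 1 for Ercc5. The seventh was Perp. For Ddb2, the 95% interval ran from -0.41 to 0.42 with shRela-1 and from -0.31 to 0.52 with shRela-2.

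Perp, a membrane protein of cell contacts and cell death (chr10:18845020-18857073, plus strand), varied more between replicates than between hairpins. It was at 17.5, 40.6 and 28.8 CPM (shScr), 27.8, 52.4 and 38.7 CPM (shRela-1) and 20.9, 36.7 and 28.7 CPM (shRela-2). In each group replicate 1 was the lowest and replicate 2 the highest. Its spread within groups, a residual SD of 0.499 on the log2 scale, was the largest of the 35, followed by Ddit4l at 0.257 and Gdf15 at 0.236. Its change was 0.45 ± 0.31 (edgeR adjusted p = 0.333, or 6.84e-07 with the replicate block) with shRela-1, -0.01 ± 0.31 (edgeR adjusted p = 0.983) with shRela-2 and -0.46 ± 0.31 (edgeR adjusted p = 0.268, or 5.53e-07 with the replicate block) between the hairpins. The order of replicates 1 and 2 was also found in Ddit4l and Zfp365, so in 3 of 35 genes (8.57%) against 562 of 15369 (3.66%). The 9 markers of macrophages and blood cells, none at 0, summed to 404, 585 and 430.4 CPM (shScr), 396, 527 and 451 CPM (shRela-1), 345, 527 and 369.8 CPM (shRela-2). This sum too was highest in replicate 2 of each group and lowest in replicate 1 of each group. Most of it was Lyz2. Not every marker had this order, and Cd14, for example, was lowest in replicate 3 of each group. Of the epithelium markers, Krt5 had the order of Perp in each group, while Krt8 and Krt18 were highest in replicate 1. Des, of the skeletal muscle markers, was highest in replicate 1 and lowest in replicate 2 of each group. The part of any of these in the levels of Perp was not tested.

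**Figure D4:**
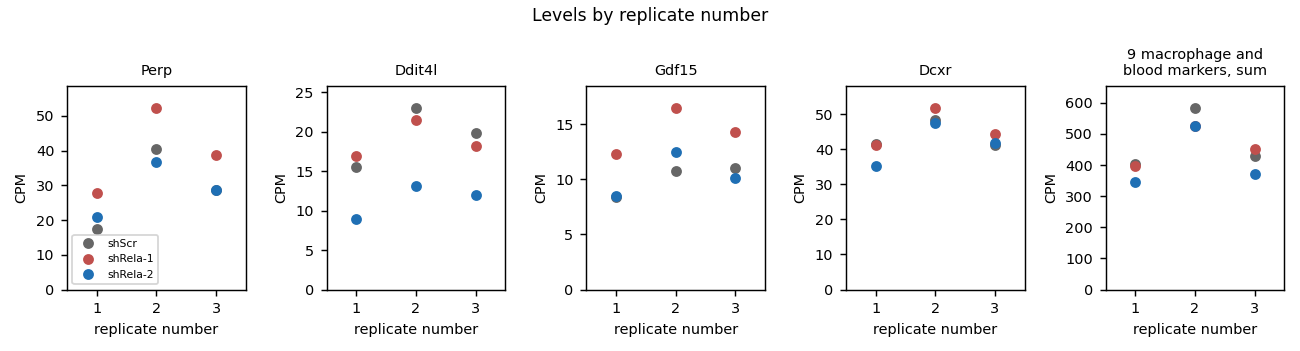
CPM of Perp, Ddit4l, Gdf15 and Dcxr and the summed CPM of 9 macrophage and blood markers by replicate number, coloured by group, on axes that start at 0. Perp is at 17.5, 40.6 and 28.8 CPM in shScr replicates 1 to 3, and replicate 1 is the lowest in every group.

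Per length of exon, the members differed far more from each other than they did between groups. In shScr, Ccng1 was highest at 264 ± 16.5 CPM per kb (SD, n = 3), followed by Phlda3 at 165 ± 10.4 and by Bax and Ak1 at 109.5 ± 1.10 and 106 ± 2.34, whose 1-SD ranges nearly touch. Plk2 and Mdm2 came next at 77.1 and 66.5 CPM per kb. The cell death genes Pmaip1, Apaf1 and Bbc3 stood below Bax, at 41.6, 6.86 and 5.47 CPM per kb. Trp53 was at 28.2 ± 0.393 CPM per kb, and the next lower, Ei24 at 27.7 ± 1.47 and Psrc1 at 27.6 ± 0.649, did not differ from it beyond their spread. The lowest were Mdm4 at 2.30, Rrm2b at 1.87, Trp53cor1 at 0.973 and Ddb2 at 0.696 CPM per kb.

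**Figure D5:**
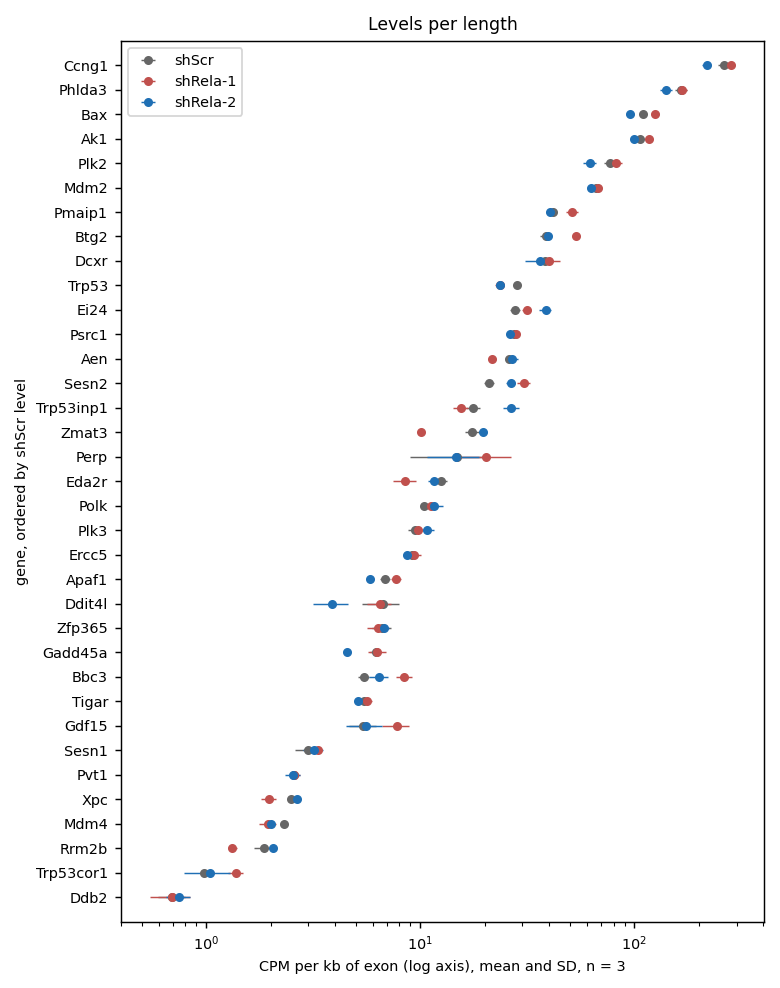
Level of each gene in CPM per kb of exon (log axis) as mean and SD (n = 3) in the 3 groups, ordered by the shScr mean. Levels span from Ddb2 at under 1 CPM per kb to Ccng1, and the 3 groups of a gene lie close together on this scale.

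Beyond these members, 61 further genes reported as p53 targets passed the filter. With shRela-1, 9 rose and 14 fell, with shRela-2 again 9 rose and 14 fell, and between the hairpins 9 were higher and 17 lower. All genes rose and fell in shares of 12.3% and 12.4%, of 15.4% and 15.4%, and of 20% and 19.9% in these comparisons. Their medians were 0.00494, -0.04 and -0.10. Under the block for replicate number 16 rose with shRela-1, against 20.4% of all genes, and 24 fell with shRela-2, against 22.2%. Between the hairpins 14 were then higher and 26 lower, against 25.8% and 26.1%. The 14 that fell with shRela-1 became 8 when shScr replicate 2, shScr replicate 3 or shRela-1 replicate 3 was left out, and the 17 became 11 without shRela-1 replicate 3. Cdkn1a, the gene of the cell cycle inhibitor p21, stood at 919, 1006 and 967 CPM (shScr), 1012, 1113 and 1036 CPM (shRela-1) and 1080.0, 1255 and 1112 CPM (shRela-2). It rose with shRela-2 (0.25 ± 0.063, edgeR adjusted p = 0.0107) and was at 0.13 ± 0.063 (edgeR adjusted p = 0.169, or 0.00192 with the replicate block) with shRela-1 and at 0.12 ± 0.063 (edgeR adjusted p = 0.142, or 0.00191 with the replicate block) between the hairpins.

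Among these further targets, the cyclin gene Ccnd2 changed by -1.21 ± 0.095 (edgeR adjusted p = 1.1e-05) with shRela-2. Ccnd2 was also lower with shRela-1 (-0.325, edgeR adjusted p = 0.0284), a call lost in 4 of the 16 other settings. The death receptor gene Tnfrsf10b rose with both hairpins, by 0.28 ± 0.033 (edgeR adjusted p = 0.000155) and 0.21 ± 0.033 (edgeR adjusted p = 0.000883). Between the hairpins Tnfrsf10b passed the test only with the replicate block (-0.0737, edgeR adjusted p = 0.0431). The receptor kinase gene Epha2 also rose with both, by 0.49 ± 0.057 (edgeR adjusted p = 0.000162) with shRela-1 and 0.2525 (edgeR adjusted p = 0.00698) with shRela-2. The thiamine transporter gene Slc19a2 differed by -0.80 ± 0.075 (edgeR adjusted p = 1.25e-05) for shRela-2 against shRela-1. Against shScr, Slc19a2 rose with shRela-1 (0.4163, edgeR adjusted p = 0.00235) and fell with shRela-2 (-0.3886, edgeR adjusted p = 0.00284).

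Of 40 tested genes of kinases, modifiers and cofactors that act on p53, 9 rose and 7 fell with shRela-1, where 12.3% and 12.4% of all genes did. With shRela-2, 7 rose and 9 fell, against 15.4% and 15.4% of all genes, and compared with shRela-1 6 were higher and 12 lower, against 20% and 19.9%. Their medians were 0.00269, -0.04 and -0.05. With the replicate block 12 fell with shRela-1, against 18.9% of all genes, and 14 with shRela-2, against 22.2%. Csnk1a1, casein kinase 1 alpha, a partner of Mdm4, changed by -0.75 ± 0.038 (edgeR adjusted p = 4.27e-07) with shRela-1 and by 0.14 ± 0.038 (edgeR adjusted p = 0.0186) with shRela-2, and the hairpins differed by 0.88 ± 0.038 (edgeR adjusted p = 6.11e-08). The rise with shRela-2 was lost without single libraries, with edgeR adjusted p of 0.0513 and 0.0775 leaving out shScr replicate 2 or 3, and 0.0624 leaving out shRela-2 replicate 1. Usp7, the deubiquitinase that stabilises Mdm2 and p53, changed by -0.44 ± 0.039 (edgeR adjusted p = 2.13e-05), and Prmt5, a methyltransferase of p53, by -0.41 ± 0.036 (edgeR adjusted p = 2.02e-05), both with shRela-1. Neither passed the test with shRela-2. For shRela-2 against shRela-1, Usp7 differed by 0.51 ± 0.039 (edgeR adjusted p = 2.83e-06) and Prmt5 by 0.46 ± 0.036 (edgeR adjusted p = 3.56e-06). With shRela-2, the cofactor genes Jmy and Brd7 changed by -0.51 ± 0.046 (edgeR adjusted p = 2.48e-05) and -0.54 ± 0.054 (edgeR adjusted p = 5.1e-05). Jmy also fell with shRela-1 (-0.279, edgeR adjusted p = 0.00145). In all 9 samples without the block, Brd7 did not pass the test with shRela-1. With the replicate block it was at -0.1483 there (edgeR adjusted p = 0.006). Without the block, this edgeR adjusted p was 0.0495 leaving out shScr replicate 1 and 0.0455 leaving out shRela-2 replicate 1. Brd7 differed by -0.3876 (edgeR adjusted p = 0.000232) for shRela-2 against shRela-1. Hipk2, a kinase of p53, differed by -0.57 ± 0.059 (edgeR adjusted p = 2.66e-05) for shRela-2 against shRela-1. Against shScr, Hipk2 rose with shRela-1 (0.3804, edgeR adjusted p = 0.000923) and fell with shRela-2 (-0.1875, edgeR adjusted p = 0.0338). The fall was lost in 4 of the 16 other settings.

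The 3′ UTRs of the members were searched for a 7-letter word per hairpin, ranked over all other genes. It was the word with the lowest t statistic, the difference in mean change between genes with and without it over its standard error. Words held by few genes were left out of the ranking. For shRela-1 this word was AGGTGTA, held by 1187 of 13859 other genes (8.56%), whose median change was -0.155 against 0.012 in those without it. Of the 33 members with a 3′ UTR in the annotation, 5 hold it, namely Mdm4, Eda2r, Plk2, Aen and Rrm2b. Of these, Mdm4, Eda2r, Aen and Rrm2b fell with shRela-1, where 12.4% of all tested genes did, and Plk2 did not pass the test. Zmat3, Xpc and Trp53 fell with shRela-1 and do not hold it. For shRela-2 the word was GAAGCTA, held by 1398 other genes (10.09%), with medians of -0.155 and 0.011. It is found in Mdm2, Mdm4, Phlda3 and Ddit4l. Of these, Mdm4, Phlda3 and Ddit4l fell with shRela-2, where 15.4% of all tested genes did. Gadd45a, Plk2, Ccng1, Apaf1, Bax and Trp53 fell with shRela-2 and do not hold it. How many of the other genes with each word fell was not counted. The words were ranked on these same samples, and their part in the results was not tested.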

How the data were processed

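The values deposited by the authors are raw counts for each gene symbol, 1 column per sample with no pooling, and all 9 columns were used. Per the submitters' processing notes, featureCounts 1.4.6 of Subread, TopHat2 2.0.14, Bowtie2 2.2.6 and the build mm10 were used, in no stated order. Per the labels' protocols, libraries were made with version 2 of the TruSeq RNA kit. It does not mark strand, and 8 of the 35 members share exon bases with a gene on the opposite strand. A count of 1 occurred 2764 times in the table and a count of 2 occurred 7984 times, and the sources used here do not say whether mates of a pair were counted separately.

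Groups were read from the sample titles. Genes were kept by filterByExpr, which left 15369 of 24062, and scaled by TMM with factors of 0.976 to 1.02. A single model of the 3 group means took in all 9 samples, with edgeR 4.0.16 in R 4.3.3 (glmQLFit, glmQLFTest, two-sided, Benjamini-Hochberg adjustment over all tested genes, threshold 0.05). There were 3 contrasts, of each hairpin with shScr and of shRela-2 with shRela-1. The method was checked on simulated counts before use. Alternatives were DESeq2 1.42.0 and its size factors, voom in limma 3.58.1, upper quartile scaling (added after the data were seen), no filter, a fit of 2 groups only, leaving out each sample and the replicate number as a block.

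Same-numbered samples of different groups deviated together from their group means (correlations 0.189 to 0.415 in all 9 pairs, against -0.306 to 0.0459 for different numbers), so the numbers in the titles pair the samples. The blocked value is printed where it changes a call of a gene named in the results or moves a count by over 1.5 times. It is also given for calls of members lost when single samples were left out, which was done without the block. The members and the gene, marker and motif lists were chosen with earlier results of these data known. Values per sample are given for Trp53, Mdm2 and Mdm4 and for members that passed the test in a contrast with a log2 fold change of at least 0.3. Beyond the members, Cdkn1a was named, and up to 4 genes with the smallest p per list and contrast could be. A gene that this rule took is not reported here. Ak1 and Perp were given per sample in addition, after their values were seen. Gene positions and exon lengths are from GENCODE M21 on GRCm38, the assembly of mm10, and promoters from RefSeq (GRCm38.p6).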

Additional observations from a re-analysis of the deposited data

How the results depend on the processing

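Over the 3 comparisons 50 values of the 35 members passed the test, and 40 of them passed under all 16 other settings. The other 10 were lost in at least 1 setting and are given with their genes above, and all 50 passed with the replicate block. With that block 17 values that had not passed did so, some of them in other settings too. No value of a member reversed. DESeq2's size factors, upper quartile scaling (chosen after seeing the data), voom and no filter changed no call of the named genes, and DESeq2's own test added 1, Trp53cor1 between the hairpins. With the replicate block, all genes called with shRela-1 went from 3799 to 6034, and members that rose with shRela-2 from 4 to 7. Other p53 targets that rose with shRela-1 went from 9 to 16, those that fell with shRela-2 from 14 to 24, and those higher and lower with shRela-2 than with shRela-1 from 9 to 14 and from 17 to 26. Kinases and cofactors that fell went from 7 to 12 with shRela-1 and from 9 to 14 with shRela-2. The block changed no other call of a member beside those printed above. With 1 sample left out, members that rose with shRela-1 ranged from 6 to 10, other targets that fell with shRela-1 from 8 to 15, and other targets lower with shRela-2 than with shRela-1 from 11 to 15. Ddb2 and Trp53cor1 had the lowest levels per length of the members in shScr, and the part of depth in their spread was not tested. The cause of these changes was not tested.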
